A study of Sus scrofa with 2 samples.

Results

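Myosin light chains were examined in RNA-seq data of biceps femoris, a hind limb skeletal muscle, from newborn cloned piglets (Sus scrofa). They were taken as the entries with the symbol MLC2V, MYL1 or LOC100515755 and those whose best protein match was described as a myosin light chain, leaving out kinases, phosphatases and interacting proteins. This gave 9 of the 12535 entries with reads in either library. The match on the description missed 3 further light chain entries, MYLPF, MLC1f and MRLC2, whose values are given separately.

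The abnormal cloned group consisted of 3 piglets with developmental failure, such as an enlarged tongue, trouble in standing or walking, or an umbilical defect, and the normal cloned group of piglets without these signs. The labels put 3 piglets in the normal pool and the methods of the study 4. All piglets were born by caesarean section on the same day of gestation, and their muscle was taken on Day 1 after birth. Every animal of both groups was a somatic cell clone, and none of the samples used here came from a naturally bred piglet. Embryonic fibroblasts of a single male Large White pig were the donor cells of the 3 abnormal and 2 of the normal piglets. The other 2 normal piglets came from ear fibroblasts of another male Large White pig. Part of the difference in donor animal and donor cell therefore coincides with the groups. Equal amounts of RNA were pooled, and 1 library was made per group, so that no difference has a replicate check and animals within a pool cannot be told apart.

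A myosin molecule carries an essential and a regulatory light chain on the neck of each heavy chain. The essential light chains stiffen the neck, and the regulatory light chains are phosphorylated and tune force and calcium sensitivity. Each kind is encoded by several genes used in different muscles: slow fibres share MYL2 and MYL3 with the heart ventricle, fast fibres use MYLPF and MYL1, the atrium and embryonic muscle use MYL4, the atrium uses MYL7, and smooth muscle and non-muscle cells use MYL9, MYL6 and the MYL12 genes. Slow fibres depend on oxidative metabolism and resist fatigue, whereas fast fibres contract more quickly.

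Summed over all entries, the abnormal library held 6.38 M and the normal library 6.52 M uniquely mapped reads. The paper states a larger number of unique reads for each group. On the summed totals, 3 reads amounted to 0.470 and 0.460 RPM (reads per 1 M unique reads). Mitochondrial transcripts took 36.0% of the abnormal and 46.1% of the normal reads, and the median log2 ratio of all entries (abnormal over normal) was 0.35. RPKM, the number of reads per kilobase of transcript and per 1 M unique reads, was used to compare levels. A difference was called at a false discovery rate (FDR) of at most 0.001 by the Audic-Claverie test where the RPKM also differed by a log2 ratio of 1 or more in either direction. With 1 library on each side, this is a test between libraries, not between conditions. By this rule 12.0% of all entries were up-regulated and 1.45% down-regulated in the abnormal library, and 13.5% changed in either direction. Other scalings between the libraries moved these counts from 1510 up and 182 down to between 751 and 1037 up and between 337 and 548 down. Of the 9 members, 6 were down-regulated, 1 was up-regulated and 2 were not called. The median log2 ratio of the members was -1.71, and -0.77 with the 3 entries outside the rule, of which 0 were called by the same test (12 entries, 4 higher and 8 lower in the abnormal library).

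MLC2V, the slow and ventricular regulatory light chain that RefSeq names MYL2, had 6779 abnormal and 56299 normal reads. This corresponded to 929 and 7553 RPKM. MLC2V was thus 8.13-fold lower in the abnormal library, with a log2 ratio of -3.02 (95% interval -3.06 to -2.99, counting error only) and an FDR of at most 2.24e-298. Its gene lies on chromosome 14 from 32237010 to 32245239 in Sscrofa9, the build of all positions given here. Among all entries ranked by RPKM, MLC2V held place 16 in the normal library and place 79 in the abnormal library. Unique reads covered 99.3% of its transcript in the normal and 88.5% in the abnormal library. In a bulk sample, fewer slow fibres and less transcript per fibre cannot be told apart.

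MYL3 (LOC100515755), the essential light chain of the same fibres, had 2694 reads (467 RPKM) in the abnormal and 22648 reads (3845 RPKM) in the normal library. The log2 ratio was -3.04 (95% interval -3.10 to -2.98), an 8.23-fold lower level, with an FDR of at most 2.24e-298. MYL3 lies on chromosome 13 from 24737679 to 24743192, and 99.1% and 99.5% of its transcript was covered. The intervals of MYL3 and MLC2V overlapped, although the genes lie on different chromosomes. Within a library, the RPKM of MLC2V was 1.99 times that of MYL3 in the abnormal pool (95% interval 1.90 to 2.08) and 1.96 times in the normal pool (1.93 to 1.99). These intervals also overlapped, so no difference in the balance of the slow regulatory and the slow essential chain was detectable at this depth.

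A pair of entries on chromosome 5 was described as myosin light chain 6B, the essential chain MYL6B of slow muscle and non-muscle cells. The first, ENSSSCG00000000380 (20475418 to 20477144), had 19 abnormal and 250 normal reads, or 5.17 and 66.6 RPKM, with a log2 ratio of -3.69 (95% interval -4.35 to -3.02) and an FDR of 4.05e-50. The second, ENSSSCG00000000390 (20619118 to 20621027), had 21 and 198 reads, or 5.72 and 52.8 RPKM, with a log2 ratio of -3.21 (-3.85 to -2.56) and an FDR of 2.98e-35. Both were down-regulated to a similar degree as MLC2V and MYL3. Both transcripts are 576 bases long, and the genes are 142 kb apart. Unique reads covered 96 bases of each in the abnormal library against 97 in the normal library, and the entries had the same best protein match. They may be copies of the same gene in the assembly whose reads were split or lost, so their levels are uncertain and they are not independent observations.

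The 4 slow or ventricular entries together were at 1407 RPKM in the abnormal and 11517 RPKM in the normal library, an 8.18-fold lower sum. Their median log2 ratio was -3.12, and 4 of 4 were down-regulated beside the 1.45% of all entries. This count and the median include both MYL6B entries, which may be copies of the same gene.

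**Figure D1:**
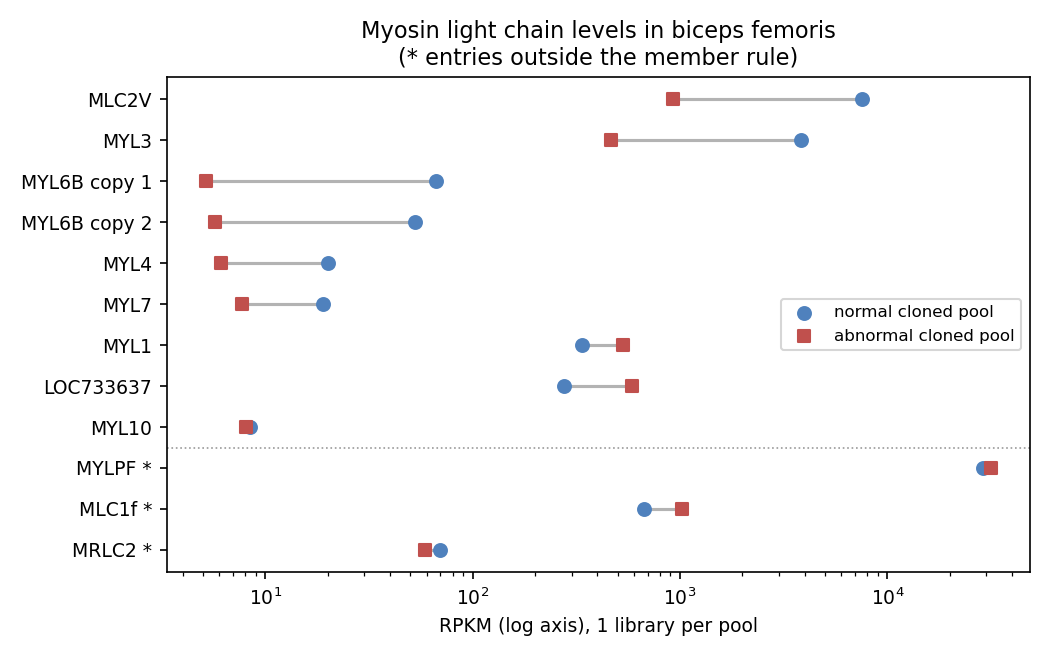
RPKM of each light chain entry (log axis) in the abnormal cloned pool (red squares) and the normal cloned pool (blue circles), with 1 library per pool and a grey line joining the pair. In the abnormal pool MLC2V stands at 929 against 7553 and MYL3 at 467 against 3845, while MYLPF stands at 31441 against 28773. MYL6B copy 1 and copy 2 are ENSSSCG00000000380 and ENSSSCG00000000390, and entries marked with * were not matched by the rule.

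MYL4, the essential chain of embryonic muscle and the atrium, had 42 reads (6.13 RPKM) in the abnormal and 140 reads (20.01 RPKM) in the normal library. Its log2 ratio was -1.71 (95% interval -2.20 to -1.21, FDR = 3.34e-12, Audic-Claverie test), a 3.26-fold lower level. MYL4 lies on chromosome 12 from 14521610 to 14536382. MYL7, the atrial regulatory chain on chromosome 18 (49568947 to 49571355), had 31 reads (7.70 RPKM) against 78 reads (19.0 RPKM). Its log2 ratio was -1.30 (95% interval -1.90 to -0.70, FDR = 4.74e-05, Audic-Claverie test). Both atrial or embryonic entries were called down-regulated, but the interval of MYL7 crossed a log2 ratio of -1 and the read counts were small. Both calls were lost when the exact test of edgeR was run with the biological coefficient of variation set to 0.2 (FDR of 0.012 for MYL4 and 0.104 for MYL7). The upper bounds of the slow MLC2V and MYL3, at -2.99 and -2.98, lay below the lower bound of MYL4, so these 2 pairs of genes differed in the size of their ratios beyond counting error. The RPKM ratio of MYL4 to MYL7 was 0.80 (95% interval 0.50 to 1.26) in the abnormal and 1.05 (0.80 to 1.39) in the normal library, so these chains did not differ in level within either library beyond counting error.

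MYL1, the essential chain of fast fibres, had 2904 reads (530 RPKM) in the abnormal and 1893 reads (338 RPKM) in the normal library. The log2 ratio was 0.65 (95% interval 0.56 to 0.73), which was under the threshold of 1, so MYL1 was not called. Its gene lies on chromosome 15 from 106221916 to 106235156. Another entry of the same locus, ENSSSCG00000016157, extends to 106245938 and was described as MLC1f, a transcript form of the fast essential chain. The MLC1f entry had 6936 reads (1025 RPKM) against 4645 reads (672 RPKM). Its log2 ratio was 0.61, with a 95% interval of 0.56 to 0.66, and it was not called either. The entries were alike in their log2 ratios, and the RPKM of MLC1f was 1.93 and 1.99 times that of MYL1 in the abnormal and the normal library.

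The level of the fast essential chain may be understated by the deposited values. Unique reads covered 93 of the 859 bases of MYL1 in both libraries and 32.5% and 31.8% of MLC1f, an entry that overlaps MYL1 at the same locus. Whether shared bases account for this was not tested. For comparison, the median coverage of entries with at least 1000 reads was 96.4% in the abnormal library against 95.4% in the normal library, and 1.17% and 2.15% of them were covered to less than 20%. The covered length of MYL1 was the same in both libraries, so this limit bears on its level more than on its log2 ratio.

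MYLPF, the regulatory chain of fast fibres, had the highest RPKM of the 12 light chain entries in both libraries, with 140363 abnormal reads (31441 RPKM) and 131236 normal reads (28773 RPKM). Its log2 ratio was 0.13 (95% interval 0.12 to 0.14), was not called, and turned to between -0.27 and -0.09 when the libraries were scaled by size factors, TMM, non-mitochondrial reads or GAPDH. MYLPF held place 7 by RPKM in both libraries. It lies on chromosome 3 from 16561154 to 16564136, and 99.7% and 99.4% of its transcript was covered. The RPKM of MYLPF was 33.8 times that of MLC2V in the abnormal library (95% interval 33.0 to 34.7) and 3.81 times in the normal library (3.77 to 3.85). These ratios within a library do not depend on the scaling between the libraries.

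**Figure D2:**
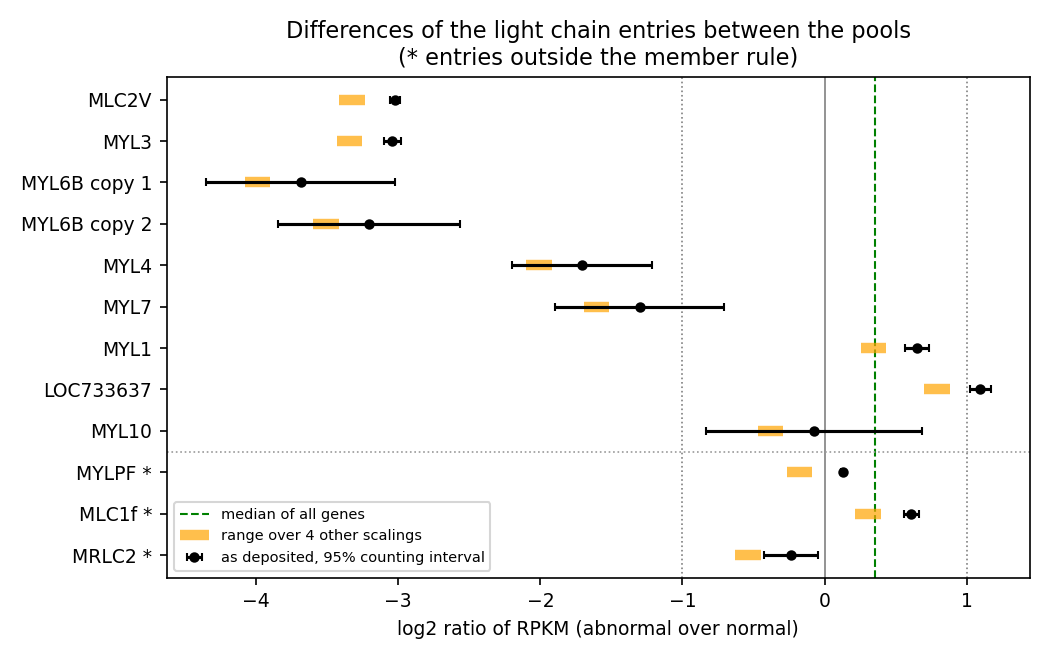
Each entry's log2 RPKM ratio (abnormal over normal) with its 95% counting interval (black), the range under 4 other scalings (orange) and the median of all genes at 0.35 (dashed green). The 6 entries MLC2V to MYL7 lie below -1 under each scaling, whereas LOC733637 lies above 1 with the deposited values and at 0.70 to 0.88 under the others.

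LOC733637, whose best protein match was a myosin regulatory light polypeptide 9-like protein, was the only up-regulated member. MYL9 is a regulatory chain of smooth muscle and non-muscle myosin. LOC733637 had 4824 reads (588 RPKM) in the abnormal and 2305 reads (275 RPKM) in the normal library, with a log2 ratio of 1.10 (95% interval 1.02 to 1.17) and an FDR of 2.21e-209. It lies on chromosome 6 from 70752759 to 70763661. Its ratio dropped to between 0.70 and 0.88 under the 4 other scalings, and the call was lost under each.

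MRLC2, another regulatory chain of this kind, lies 5.25 kb away on the same strand, from 70730403 to 70747507, and had 411 reads (59.0 RPKM) against 494 reads (69.4 RPKM). Its log2 ratio was -0.23 (95% interval -0.42 to -0.05), with an FDR of 0.0434, and it was not called. The RPKM of LOC733637 was therefore 9.97 times that of MRLC2 in the abnormal library (95% interval 9.01 to 11.02) and 3.96 times in the normal library (3.596 to 4.37), and these intervals did not overlap. Unique reads covered 88.8% and 78.6% of LOC733637 and 74.6% and 77.1% of MRLC2. The description of LOC733637 was taken from its protein match alone. It lies between MRLC2, which Ensembl names MYL12A, and MYOM1, 31.1 kb away. Whether it is MYL9 or one of the similar MYL12 genes was not determined.

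MYL10, a further regulatory light chain gene, had 26 reads (8.04 RPKM) in the abnormal and 28 reads (8.48 RPKM) in the normal library. The log2 ratio of -0.08 had a 95% interval of -0.84 to 0.69, so a difference below this size was not detectable at this depth. MYL10 lies on chromosome 3 from 7507804 to 7515619.

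The order of the members by RPKM differed between the libraries. In the normal library MLC2V and MYL3 led, with MYL3 at 11.4 times the level of MYL1 (95% interval 10.8 to 11.9). MYL1, LOC733637, the MYL6B entries, MYL4, MYL7 and MYL10 followed, and of these neighbours only MYL4 and MYL7 did not differ beyond counting error. In the abnormal library MLC2V still stood first, at 1.58 times the level of LOC733637 (95% interval 1.52 to 1.64). LOC733637 and MYL1 now stood above MYL3, with MYL1 at 1.13 times the level of MYL3 (1.08 to 1.20). The lowest 5 entries of the abnormal library, at 5.17 to 8.04 RPKM, could not be ordered, since the interval of each neighbouring ratio included 1. The places of MYL1 and of the MYL6B entries rest on RPKM. Per covered kb and 1 M unique reads, MYL1 had 4896 reads in the abnormal library, above MLC2V at 1050, and 3124 reads in the normal library, below MYL3 at 3866. On this scale the first MYL6B entry (396) stood above LOC733637 (350) in the normal library, and both MYL6B entries (31.0 and 34.3) stood above MYL10, MYL7 and MYL4 (8.54 to 12.2) in the abnormal library.

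The slow share of each kind of light chain was then computed within each library, with the MLC1f entry counted as fast essential and MYLPF as fast regulatory. Of the summed RPKM of the essential chains of striated muscle, the slow MYL3 and MYL6B made up 23.4% in the abnormal library against 79.4% in the normal library. The corresponding reads were 2734 of 12616, or 21.7% (95% Wilson interval 21.0% to 22.4%), and 23096 of 29774, or 77.6% (77.1% to 78.0%). Of the regulatory chains, MLC2V made up 2.87% of the RPKM in the abnormal library against 20.8% in the normal library, a 7.24-fold lower share. By reads this was 6779 of 147173, or 4.61% (4.50% to 4.71%), and 56299 of 187613, or 30.01% (29.8% to 30.2%). Both kinds of chain had a lower slow share in the abnormal library.

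The essential slow share depended on how the fast essential chain was counted. When reads were divided by the covered length instead of the whole length, a measure added after the data were seen, the essential slow share was 6.25% in the abnormal library against 46.5% in the normal library, a 7.44-fold lower share. The regulatory slow share on this scale was 3.22% and 20.8%, 6.45-fold lower. The total of the essential chains was then 1.14 times as high in the normal as in the abnormal library, against 2.45 times by RPKM, and the total of the regulatory chains was 1.12 times as high on either scale. Without the MLC1f entry, the essential slow share by RPKM was 47.1% and 91.7%.

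**Figure D3:**
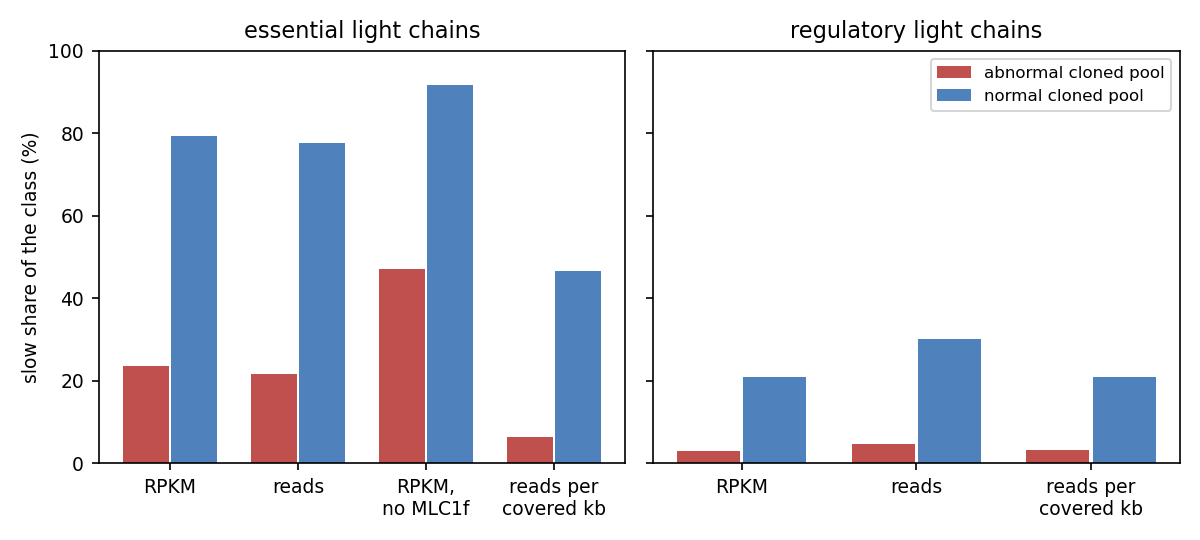
Slow share (percent) of the essential light chains (left) and the regulatory light chains (right) in the abnormal (red) and the normal (blue) cloned pool, as a part of the summed RPKM, of the reads, of the RPKM without the MLC1f entry, and of the reads per covered kb. The abnormal bar is lower than the normal bar in each pair, from 23.4% against 79.4% (essential, RPKM) to 3.22% against 20.8% (regulatory, covered kb).

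The 2 main slow light chains were compared with other abundant transcripts. Of the 419 genes that had 1000 or more normal reads, the median log2 ratio was -0.06, with 33 up-regulated and 18 down-regulated. A log2 ratio of -2 or less was found in 5 of them, of which MYL3 was the third lowest and MLC2V the fourth lowest. This set was chosen on the normal reads alone, which favours genes with low ratios, so the ranks are a description only. Among the 471 genes with a mean of at least 1000 reads over both libraries, a set added after the data were seen, the median was 0.11. In that set 4 genes were at -2 or less (TNNC1, MYL3, MLC2V and the tropomyosin 3 entry, in this order) and 21 at 2 or more. The genes closest to MLC2V in log2 ratio were taken from the 419 with at least 1000 normal reads, outside the light chains. They were TNNC1 (-3.18), the tropomyosin 3 entry ENSSSCG00000006556 (-2.61), MYH7 (-3.52), ACAA2 (-1.51) and LARP7 (-1.29). This is a description over 2 libraries, and genes with fewer normal reads were not compared. TNNC1 encodes the calcium sensor of slow and cardiac muscle, tropomyosin 3 the slow tropomyosin, and MYH7 the slow myosin heavy chain that carries MLC2V and MYL3. ACAA2 is an enzyme of mitochondrial fatty acid oxidation, and LARP7 binds the 7SK RNA.

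**Figure D4:**
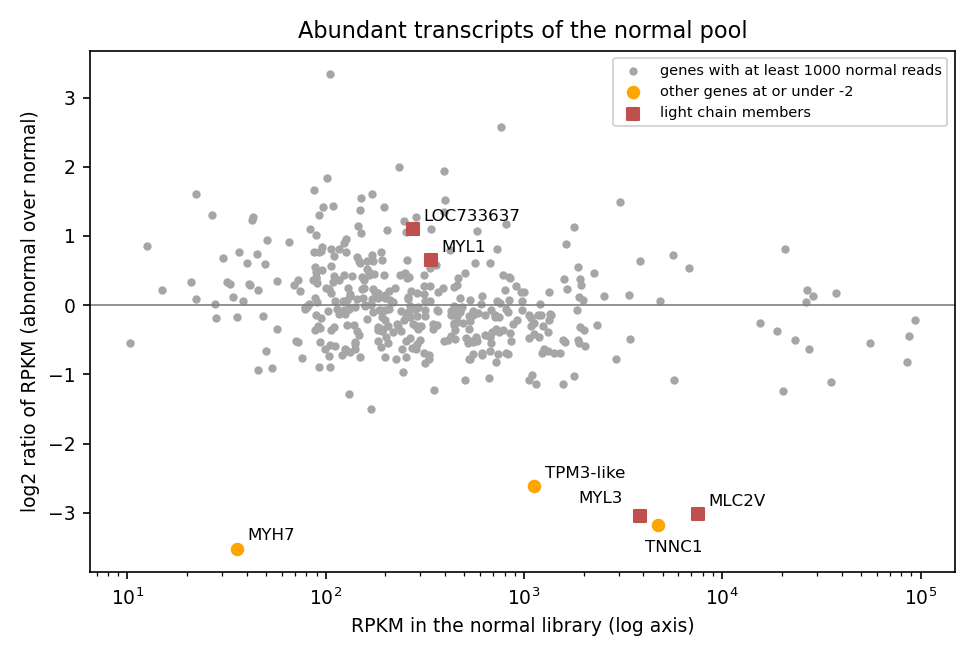
The log2 ratio (abnormal over normal) against the RPKM in the normal library (log axis) for the 419 genes with at least 1000 normal reads (1 point each). MLC2V and MYL3 (red squares) stand with TNNC1, MYH7 and the tropomyosin 3 entry (orange) at log2 ratios from -3.52 to -2.61, and the next lowest gene is at -1.51. The genes were chosen on their normal reads, which favours low ratios.

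Of 10 other genes of the slow sarcomere, 7 were listed in the files. MYH7, TNNC1 and TPM3 were down-regulated and 4 were not called, with a list median log2 ratio of -0.56. Over all entries 1.45% were down-regulated, with a median of 0.35. MYH7 had 120 abnormal and 1407 normal reads, but only 3.97% of its transcript was covered in the normal library. TNNC1 had 2336 reads (523 RPKM) against 21598 reads (4728 RPKM). TPM3, listed as ENSSSCG00000006556 and covered to 18.0% in the normal library, had 1933 against 12077 reads. It was matched by 2 entries, of which the one with the most reads was taken. ATP2A2, the slow calcium pump, had a log2 ratio of -0.56 and was not called. MYBPC1 (-0.14), CASQ2 (0.37, 95% interval 0.20 to 0.54) and MYOZ2 (0.39, 0.21 to 0.58) were not called either. The slow sarcomere genes thus did not all share the ratio of the slow light chains.

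Of 13 genes of the fast sarcomere, 10 were listed, of which 2 were up-regulated and 8 were not called, with a median of 0.54. Over all entries 12.0% were up-regulated, with a median of 0.35. PVALB, the calcium buffer parvalbumin of fast fibres, had a log2 ratio of 1.94, with 5372 against 1429 reads. MYH4, the heavy chain of the fastest fibres, had 371 against 52 reads (log2 ratio of 2.87), with 1.48% of its transcript covered in the normal library. ATP2A1, the fast calcium pump, and MYBPC2, the fast myosin-binding protein C, had ratios of 0.89 and 0.64 and were not called. More abundant members of the list had ratios below 0 and were not called, namely the fast heavy chains MYH1 (-0.49, 70560 against 101411 reads) and MYH2 (-0.08) and the fast troponin C, TNNC2 (-0.25). Under the 4 other scalings, the counts of these lists stayed at 3 down-regulated slow and 2 up-regulated fast genes.

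Of 9 genes of fetal and embryonic muscle, 7 were listed, and their median was 0.42, near the 0.35 of all entries. The 1 up-regulated gene among these 7 stood beside 12.0% of all entries. IGF2BP2, an RNA-binding protein of fetal tissue, was up-regulated (1.503), and 6 were not called, among them NCAM1 (0.57), the embryonic heavy chain MYH3 (0.48) and the differentiation factor MYOG (0.42). The fetal heavy chain MYH8 (-0.15, 18543 against 21014 reads), the fetal acetylcholine receptor subunit CHRNG (-0.58) and the cardiac actin ACTC1 (0.14) were not called either. The MYH8 entry was matched by its protein description alone. Its span (52210223 to 52348947) includes that of MYH1 (52298246 to 52315949), and whether its reads are specific to MYH8 was not tested. The embryonic light chain MYL4 was thus down-regulated in the same libraries in which the embryonic heavy chain MYH3 had a log2 ratio of 0.48 (0.085 to 0.26 under the other scalings) and was not called.

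Enzymes that act on the light chains were also considered, as kinases phosphorylate the regulatory chains and myosin phosphatase removes the phosphate. Of 15 genes, 8 were listed, 1 was up-regulated and 7 were not called, with a median of 0.52. Over all entries 12.0% were up-regulated and the median was 0.35, so this list stood near all entries. ROCK2, a kinase that inhibits the phosphatase, had a ratio of 1.09, and lost its call under the 4 other scalings. MYLK2, the kinase of skeletal muscle, was at 0.44 and PPP1CB, the catalytic subunit of the phosphatase, at 0.80. MYLK, the smooth muscle kinase, was at -0.94 and was called down-regulated under the 4 other scalings.

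**Figure D5:**
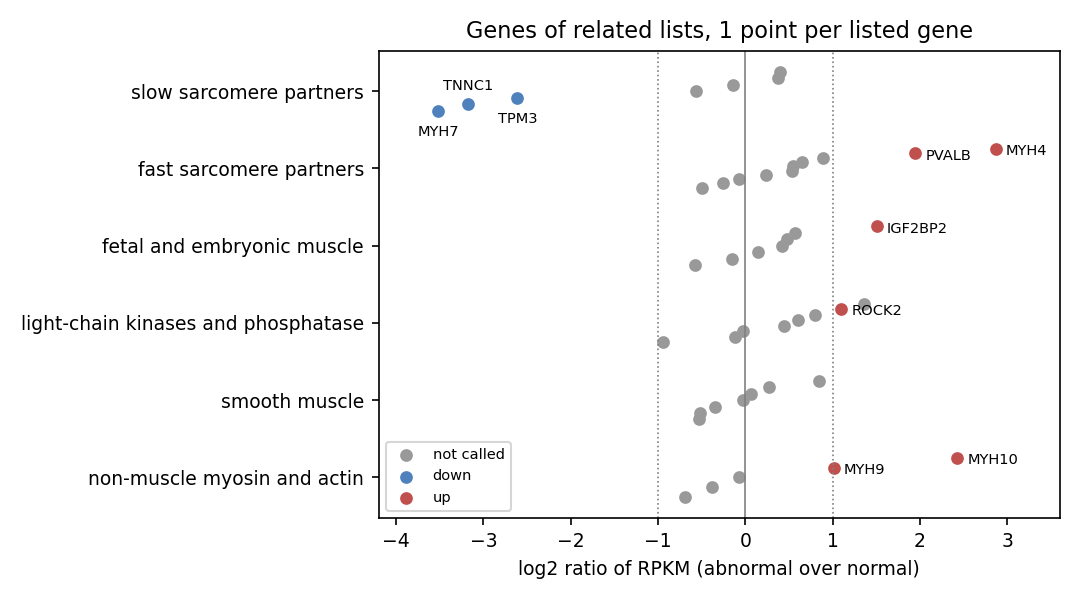
The log2 ratio (abnormal over normal) of each gene with at least 10 reads in either library, in 6 lists related to the light chains (1 point per gene, blue for down-regulated, red for up-regulated, grey for not called). The called genes are TPM3, TNNC1 and MYH7 among the slow genes and 6 up-regulated genes in the other lists.

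Markers of other cell types were examined beside the light chains that such cells could contribute. Since ventricular muscle shares MLC2V and MYL3, 7 cardiac markers were looked up. Of these, 2 were listed, with 15 reads in the abnormal library against 17 in the normal library in all (MYH6 with 2 and 7, RYR2 with 13 and 10). In the normal library 1.72% of the MYH6 and 2.6% of the RYR2 transcript was covered. The MYH6 entry overlaps that of MYH7, and reads that map to more than 1 place are not counted, so MYH6 may be understated. NPPA, NPPB, TNNI3, TNNT2 and NKX2-5 were not listed under these names in either library. Absence of a name does not show absence of the transcript, as CKM, DES, TNNT1 and TNNT3 were likewise not listed by name. Of 12 skeletal muscle markers, 8 were listed, with a median of 0.05 and summed RPKM of 43260 and 38406. Of these 8, 1 was down-regulated, beside 1.45% of all entries. It was MYH7, the same entry as in the slow list. Of 8 smooth muscle genes, 7 were listed and 0 were called by the Audic-Claverie rule, beside 13.5% of all entries. Their median was -0.03, with summed RPKM of 443 and 506, beside the up-regulated LOC733637, whose identity was not determined.

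Of 6 non-muscle myosin and actin genes, 5 were listed and 2 of these were up-regulated, beside 12.0% of all entries. MYH10 (2.42) and MYH9 (1.01), heavy chains that pair with the non-muscle light chains, were up-regulated, and the call of MYH9 was lost under the 4 other scalings. The non-muscle actin ACTB had a log2 ratio of -0.69 and MYH14 of -0.07, and neither was called. ACTB was called down-regulated with size factors (-1.04) and TMM (-1.08). The lists of red blood cell genes (4 of 7 listed), fibroblast genes (4 of 4) and endothelial genes (2 of 3) held no called gene. Their medians were -0.24, -0.12 and 0.31. Among the red blood cell genes, HBB (-0.54, 2692 against 4003 reads) and HBA (-0.60, 5352 against 8266 reads) had ratios below 0. ALAS2 (0.06, 86 against 84 reads) and SLC4A1 (2.10, 21 against 5 reads) had ratios above 0. Over all entries 13.5% were called, so lists this short can hold none. Of 4 liver genes, 2 were listed and 1 of these was down-regulated, beside 1.45% of all entries. This was ALB, with 12 against 271 reads, while APOA1 had 298 against 281 reads (0.12) and was not called. Of 3 adipocyte genes, 2 were listed, with 3 reads in the abnormal library against 0 in the normal library. The part of other cell types in the differences of the light chains was not tested.

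Entries flanking the members were compared as well. They were the nearest on each side of a member with at least 10 reads in both libraries. Other light chain entries were passed over, and entries with fewer reads in either library were not considered. The 9 members lie on 8 chromosomes. Of 18 flanking entries, 2 were up-regulated, 0 were down-regulated by the Audic-Claverie rule and 16 were not called. Their log2 ratios ran from -0.72 to 1.16, with a median of 0.23. Over all entries 12.0% were up-regulated and 1.45% down-regulated. With so low a share of down-regulated entries, 18 are too few to show whether the differences extended along the chromosomes. With size factors 0 were up-regulated and 2 down-regulated (ACADL beside MYL1 and ITGB3 beside MYL4), and with TMM 0 and 3 (POLD2 beside MYL7 as well), with medians of -0.12 and -0.16. Beside MLC2V these were PPP1CC (0.84, 118 kb away) and ATXN2 (0.78, 470 kb away). Beside MYL3 they were ENSSSCG00000011324 (0.14, 27.3 kb away) and CCDC12 (0.16, 112 kb away). They need not be the adjacent genes, as EPB41L3, taken beside LOC733637, lies 1184 kb from it. The flanking entries of MLC2V and MYL3 were not called, whereas SMARCC2 beside the first MYL6B entry (1.01) and CDC27 beside MYL4 (1.16) were up-regulated.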

How the data were processed

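Total RNA of biceps femoris was pooled per group, oligo(dT) beads selected the mRNA, and 1 library per pool was sequenced. The authors used SOAPaligner/soap2 (up to 2 mismatches) to map filtered reads to transcripts of Sscrofa9 and deposited the count of unique reads, without normalization, and the RPKM of each transcript. The deposited coverage is the percent of the transcript length under unique reads. Reads that map to more than 1 place are not in these counts, so transcripts with near copies may be understated. Entries absent from a table were taken as 0 reads. Recomputed RPKM differed from the deposited values by at most 3.35e-08 in relative size.

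Groups were taken from the sample titles. Names were those of the tables, RefSeq (Sscrofa11.1, names only; 7194 of the 8429 Entrez numbers matched) or Ensembl. The table of RefSeq positions was not used. Calls used the log2 RPKM ratio, abnormal over normal (an RPKM of 0 was replaced by 0.001), and a two-sided p-value of the Audic-Claverie test, with Benjamini-Hochberg adjustment over 12535 entries and p-values bounded at 1e-300. Intervals are 95% Wilson intervals of shares of reads and cover counting error only. With 1 library per group, a model with replicates could not be fitted. All 9 members were described. Where several entries matched a listed gene, as for TPM3, MYBPC1, MYLK, ROCK2 and MYH9, only the entry with the most reads was used. Up to 4 genes per list were named, those with the largest ratios in size and at least 100 reads in either library. Other genes of the lists, cardiac markers and flanking genes named beyond this were chosen after their values were seen, as was the match of some genes by protein description. The members and lists were chosen with earlier results of these data known.

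The alternatives were DESeq2-type median-ratio size factors, TMM, totals without mitochondrial transcripts, equal GAPDH, the exact test of edgeR at a biological coefficient of variation (BCV) set to 0.2 or 0.4, Fisher's exact test, a pseudocount of 1, at least 10 reads in both libraries, the ratio alone, and other ways to count the slow share. The scripts were tested on simulated data. R 4.3.3 (edgeR 4.0.16) and Python 3.11.15 (scipy 1.17.1, pandas 2.3.3, numpy 2.4.6 and matplotlib 3.10.9) were used.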

Additional observations from a re-analysis of the deposited data

How the results depend on the processing

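No paired analysis was possible because each group had 1 library. The 6 down-regulated light chains kept their calls under each scaling, Fisher's exact test, the pseudocount, the read minimum and the ratio alone. With edgeR's exact test, 4 were called at an assumed BCV of 0.2, without MYL4 and MYL7, and 0 at 0.4. The count of up-regulated members fell from 1 to 0 under the 4 scalings and both BCV values. MYLPF reversed to -0.22 with median-ratio factors, -0.27 with TMM, -0.12 without mitochondrial totals and -0.086 with equal GAPDH. Over all entries, 822, 751 and 987 were up-regulated with median-ratio factors, TMM and totals without mitochondrial transcripts, and 490, 548, 369 and, with equal GAPDH, 337 were down-regulated. The BCV of 0.2 gave 243 up and 20 down, that of 0.4 gave 2 and 1, and the ratio alone 3749 and 1475. The median of the slow or ventricular entries moved to -3.48 (median-ratio factors) and -3.52 (TMM). The essential slow share (abnormal, normal) was 21.7% and 77.6% by reads, 47.1% and 91.7% without MLC1f, and 6.25% and 46.5% per covered kb, and 78.9% in the normal library without MYL6B. The regulatory share was 4.61% and 30.01% by reads, and 3.22% in the abnormal library per covered kb. Shares per covered kb or without MLC1f, and counts with MYLPF, MLC1f and MRLC2 added (1 up, 6 down), were chosen after seeing the data. The 4 scalings shift all log2 ratios alike, by -0.39 to -0.21. Depth limits MYL10, MYL4 and MYL7, and the spread between animals was not measured.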
